A study of Mus musculus with 6 samples.

Results

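Solitary m6A-enriched regions are stretches of the mouse genome where RNA carrying N6-methyladenosine was detected and where no other such stretch lay within 100 kb on the same chromosome. They were chosen from 1 deposited list of peaks by joining touching peaks into regions and keeping, on chromosomes 1 to 19, each region whose nearest other region was more than 100000 bases away, counted from end to start. The rule found 1211 solitary regions among the 22669 regions of these chromosomes, or 5.34%. The complete list held 23446 regions, including those on X, the mitochondrial sequence and unplaced sequence. The distance to the nearest region chose the members, so distances and the emptiness around them are given as a description. Width and the number of peaks in a region were not used by the rule. The joining still bears on them, since an enriched stretch with a short gap in it counts as separate regions, none of them solitary. Joining peaks within 100 bases gave 1345 solitary regions.

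The list came from methylated RNA immunoprecipitation sequencing (MeRIP-seq) of midbrain and striatum microdissected from adult wild-type littermate mice on the C57BL/6 background. In this assay an antibody against m6A enriches RNA fragments that carry the mark, and RNA that was not immunoprecipitated serves as input. There were 3 MeRIP and 3 input libraries, all depleted of ribosomal RNA, and both brain areas were labelled together as 1 tissue. The labels attach the same list to all 6 libraries, and it holds positions only, with no height, strand or value per library. For this reason no value below has an error between replicates, depth is unknown, and no test between groups of regions was made; intervals on shares cover counting error only. Markers of the tissue could not be checked in a list without genes or levels.

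N6-methyladenosine is written on nascent RNA by a methyltransferase complex with METTL3 and METTL14 as its core, and FTO and ALKBH5 can remove it. In mammalian mRNA it is known to concentrate around stop codons and in long internal exons, often with several sites close together in the same transcript. Distances here run along the genome, so a second stretch in the same transcript can lie beyond 100 kb across an intron. Genes, exons and sequence at these positions (build mm9) were not analysed here, since the gene and sequence tables at hand belong to another build.

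On chromosomes 1 to 19, solitary regions and the rest of the list had the same median width. The solitary median width was 225 bases, with quartiles of 150 and 325 bases, against a median of 225 and quartiles of 150 and 350 bases in the 21458 regions that had a neighbour at 100 kb or nearer. Region ends lie on a grid of 25 bases, so the upper quartiles differ by a single step of that grid. The medians also came to differ by 1 step, at 200 bases in solitary regions against 225 bases, when X was included or when the limit was lowered to 50000 bases. Mean width was 275 ± 198 bases (SD over 1211 regions) in solitary regions and 286 ± 219 bases (SD over 21458 regions) in the others. The difference between the means was not tested.

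Narrow regions made up nearly the same share of both groups. The smallest width in the list, 100 bases, was held by 159 solitary regions, or 13.1% (95% Wilson interval 11.3 to 15.1), and by 12.5% of the others (12.1 to 12.9). At the wide end, 125 solitary regions were over 500 bases, or 10.3% (8.73 to 12.2), against 11.7% (11.2 to 12.1) of the others. Over 1000 bases there were 12 solitary regions, 0.991% (0.568 to 1.72), against 1.49% (1.34 to 1.66). The shares of wide regions were lower in the solitary group and the intervals of the groups overlapped at each of these widths.

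**Figure D1:**
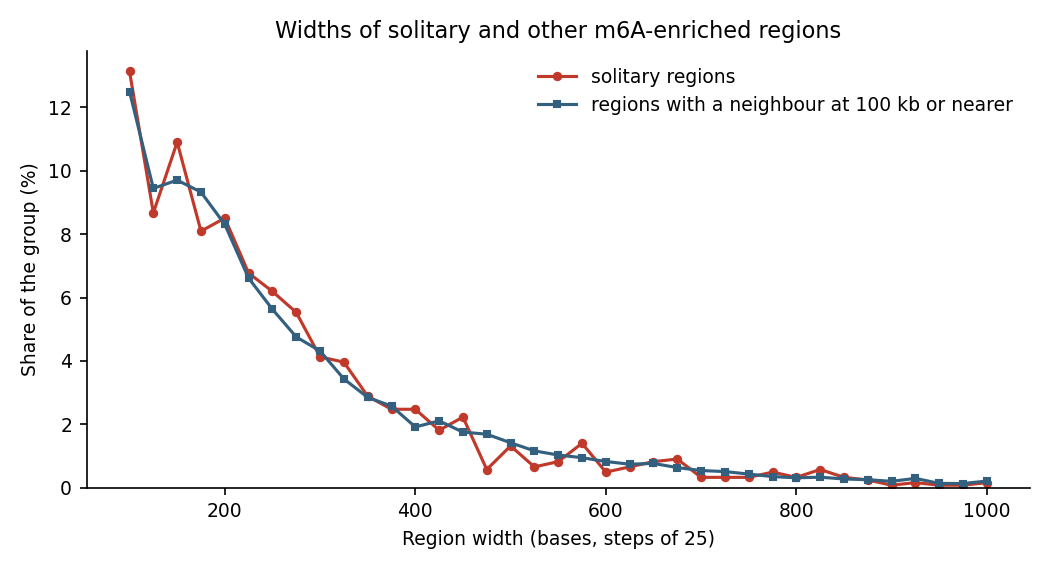
Share of regions (y axis, percent of the group) at each width from 100 to 1000 bases (x axis, in steps of 25 bases), for the 1211 solitary regions (red circles) and the 21458 regions with a neighbour at 100 kb or nearer (blue squares). The curves run together from 13.1% and 12.5% at 100 bases downward, and the solitary curve scatters more because it rests on fewer regions.

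Single-peak regions are those that the list holds as 1 peak rather than as a run of touching peaks. Of the solitary regions, 597 were of this kind, or 49.3% (46.5 to 52.1), and of the others 10572, or also 49.3% (48.6 to 49.9). The shares were not equal at other limits. With 50000 bases the solitary share was 51.5% (49.5 to 53.6) against 49.0%, and with 200000 bases 47.4% (43.2 to 51.6) against 49.3%. Because the listed peaks are pieces of at most 200 bases, single-peak regions were exactly the regions of 200 bases or less, and this share is a second reading of width rather than separate information. A further 417 solitary regions (34.4%) held 2 peaks, against 32.1% of the others. Regions of 3 or more peaks numbered 197 (16.3%) against 18.6%. Together the solitary regions held 2161 peaks and covered 333 kb, 5.15% of the covered bases of chromosomes 1 to 19.

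The comparison of widths was repeated within each of the 19 chromosomes. The median width of solitary regions was lower than that of the other regions on 7 chromosomes, equal on 7 and higher on 5. Their mean width was lower on 13 chromosomes and higher on 6. The single-peak share was lower among solitary regions on 8 chromosomes and higher on 11. Thus neither direction of the median held over the chromosomes, and the mean leaned toward narrower solitary regions on most of them. Chromosome 5, chosen for mention after its values were seen, went furthest the other way. Its 73 solitary regions had a mean width of 342 ± 268 bases (SD over regions) and a single-peak share of 39.7%, against 272 bases and 51.7% in its other regions.

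Among regions with a nearer neighbour, those closest to another were the widest. Regions within 100 bases of another had a median width of 250 bases and a single-peak share of 42.2% (40.8 to 43.7). Those with the nearest at over 100 bases and up to 1 kb had a median of 225 bases and a share of 47.8% (46.7 to 49.0). With the nearest at 1 to 10 kb, regions had a median of 200 bases and a share of 54.7% (53.3 to 56.1). At 50 to 100 kb, just short of the limit for solitary regions, the median was 200 bases and the share 54.0% (51.0 to 57.0). The class medians of solitary regions, given next, lay within the 200 to 250 bases of these classes.

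Within the solitary group, width showed no steady change with distance. The 673 members with the nearest region at 100 to 200 kb had a median of 200 bases and a mean of 269 ± 194 bases (SD). The 412 members at 200 to 500 kb had a median of 225 bases and a mean of 289 ± 208 bases, and the 126 members beyond 500 kb had a median of 212.5 bases and a mean of 265 ± 188 bases. Their single-peak shares were 50.8% (47.0 to 54.6) and 46.6% (41.8 to 51.4), and beyond 500 kb 63 of the 126 regions were single peaks (an interval of 41.4% to 58.6%). Across the 1211 members, Spearman's rho between width and distance to the nearest region was 0.0090, a description over regions of 1 list that share their libraries.

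**Figure D2:**
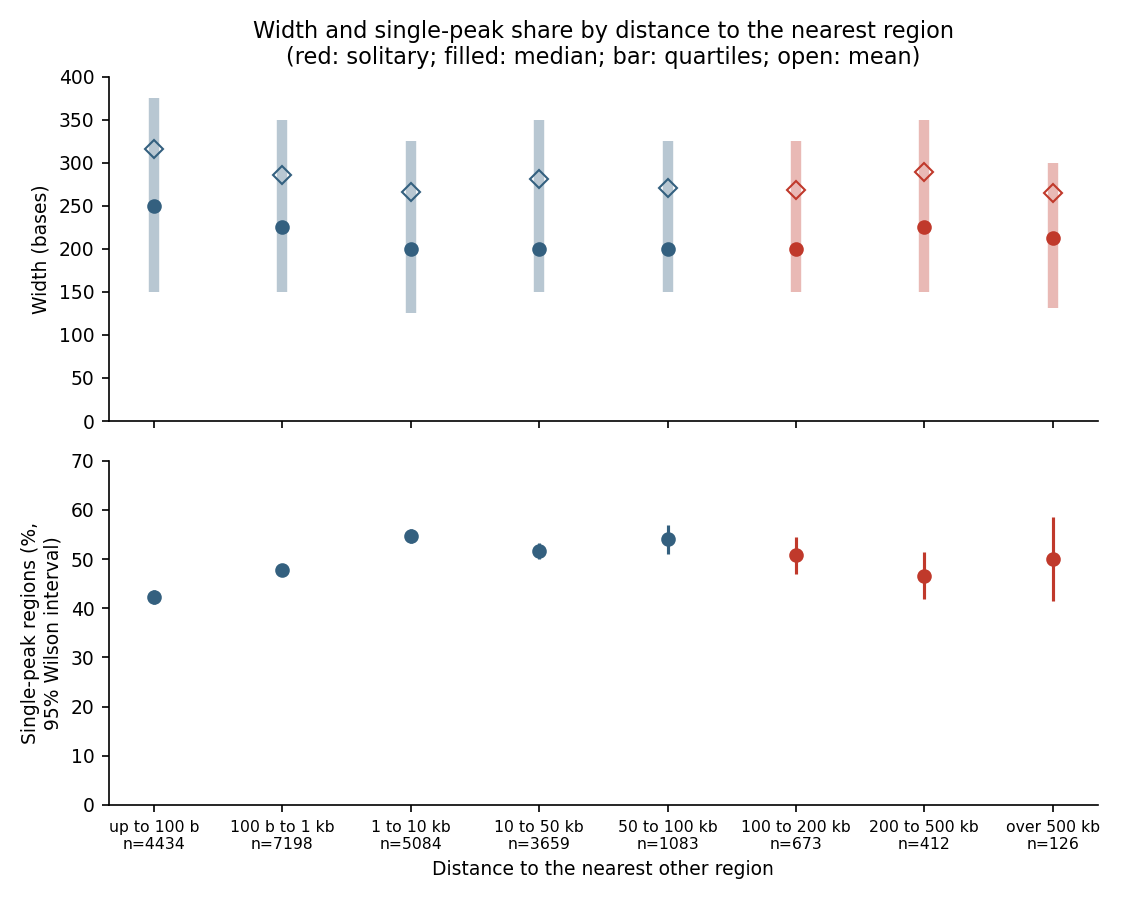
Upper panel, region width in bases (filled points are medians, bars span the quartiles, open diamonds are means) and lower panel, share of single-peak regions in percent with 95% Wilson intervals, for 8 classes of distance to the nearest other region (x axis, n is the number of regions). Solitary classes are red: their medians lie at 200, 225 and 212.5 bases, while regions within 100 bases of another stand at 250 bases and the lowest single-peak share, 42.2%.

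Distances around solitary regions reached far beyond the limit. The nearest other region was a median of 180.0 kb away, with quartiles of 131 and 296 kb and a maximum of 1925 kb; over all 22669 regions the median was 0.900 kb. Of the members, 538 (44.4%) had none within 200 kb, 126 (10.4%) none within 500 kb and 28 (2.31%) none within 1 Mb. Just inside the limit were regions at 100.025, 100.275, 100.275, 100.325 and 100.4 kb, with widths of 150 to 300 bases. Just outside it were regions at 99.85, 99.775, 99.775, 99.725 and 99.625 kb, with widths of 100 to 250 bases. The limit therefore falls in a continuous range of distances.

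The gaps on either side of a solitary region were usually unequal. Among the 1208 members with a neighbour on both sides, the longer gap had a median of 489 kb and reached 4674 kb. The median ratio of the longer to the shorter gap was 2.10, and in 52.1% the longer gap was more than 2 times the shorter. The distance between the flanking neighbours had a median of 712 kb. Across members the shorter and the longer gap rose together, with a Spearman's rho of 0.518 over 1208 regions; sorting each pair by length makes some positive relation certain. Of the 38 regions that were first or last on their chromosome, 3 were members, and there a single long gap is enough to qualify. Over all regions the share of members was 5.34%.

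**Figure D3:**
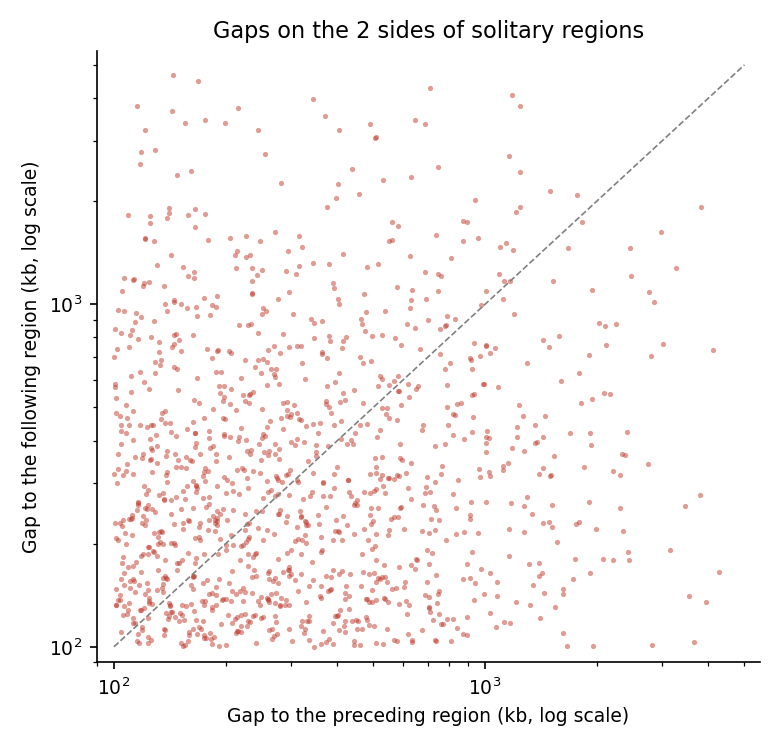
Each point is 1 of the 1208 solitary regions with a neighbour on both sides, placed by the gap to the preceding region (x axis) and to the following region (y axis), both in kb on log scales; the dashed line marks equal gaps. All points lie above 100 kb on both axes by the rule, and they spread on either side of the line up to 4674 kb.

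The 5 most distant solitary regions were 150 to 425 bases wide. The first lay on chromosome 7 from 11075751 to 11076050 (mm9), 300 bases in 2 peaks, with gaps of 3826 kb before and 1925 kb after it. The second lay on chromosome 1 from 125230551 to 125230975, 425 bases in 3 peaks, with its nearest region 1766 kb away. The third, on chromosome 6 from 131315251 to 131315400, was a single peak of 150 bases between gaps of 1824 and 1739.9 kb. These stretches hold no other region over several megabases. The regions themselves ran from the lower quartile of solitary widths, 150 bases, to above the upper quartile of 325 bases.

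The next in order was a single peak of 150 bases on chromosome 18 from 28883826 to 28883975, with 1624 kb to its nearest region. Then a region on chromosome 10 from 129906526 to 129906950 was 425 bases wide and the last region of its chromosome, so its 1546 kb are measured on 1 side only. None of these 5 had another region in the 1 Mb around it. Of the 126 members beyond 500 kb, 12 (9.52%) were wider than 500 bases, against 11.6% of all regions of chromosomes 1 to 19. Regions of this width thus also occurred far from any other region. The difference in share was not tested.

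The widest solitary regions lay in quite different surroundings. The widest was on chromosome 11 from 60882726 to 60884550, 1825 bases in 10 peaks, and it had 34 other regions in the 1 Mb around it, although its nearest was 103 kb away. The second, on chromosome 4 from 11887826 to 11889400, spanned 1575 bases in 8 peaks with 10 others in the surrounding 1 Mb. The third, on chromosome 3 from 154749626 to 154751000, spanned 1375 bases with 6 others. The number of surrounding regions thus fell from well above to the same as the median of solitary regions, which is 6.

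The 2 that followed had almost no other region around them. One, also 1375 bases wide, lay on chromosome 5 from 82223301 to 82224675 with 1 other region in the surrounding 1 Mb and 2261 kb of empty sequence after it. The other, on chromosome 4 from 68422751 to 68424025, was 1275 bases wide, again with 1 other region, and 3147 kb before it were empty. Of the 12 solitary regions over 1000 bases, 4 had at most 2 others in the 1 Mb around them.

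Local density was counted as the number of other regions whose centre lay within 500 kb on either side. Solitary regions had a median of 6 others in this 1-Mb window, with quartiles of 2 and 11 and a maximum of 48. Regions with a nearer neighbour had a median of 17, with quartiles of 10 and 29 and a maximum of 172. The rule itself empties the inner 100 kb on each side of a member. Without that inner stretch the median of the other regions was 11, with quartiles of 6 and 21, still above the 6 of solitary regions, whose count does not change. The median was lower in solitary regions on 19 of 19 chromosomes, both for the complete window and without the inner stretch.

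Counted per region, solitary regions thus tended to sit in sparsely marked megabases, with wide variation. This count enters a dense megabase once for each of its regions. Among the 2015 fixed bins of 1 Mb with any region the contrast was smaller. The median was 7 regions in bins with a solitary region against 9 in the rest of these bins. Bins with no region were left out, and counting them would lower the second median. In 126 solitary regions (10.4%) the window held no other region. In 314 (25.9%) it held at most 2, against 1.65% of the other regions in the complete window and 10.7% of them without the inner stretch. At the other end, 80 members (6.61%) had 20 or more others, against 44.3% in the complete window and 27.5% without the inner stretch. The member with the most, named because of this value after it was seen, lay on chromosome 2 from 119303626 to 119303875, 250 bases wide. It had 48 others in its 1-Mb window and gaps of 124 and 121 kb on its sides. Windows of 9 members ran past the first or last region of a chromosome, and with full windows only the medians were again 6 and 17.

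**Figure D4:**
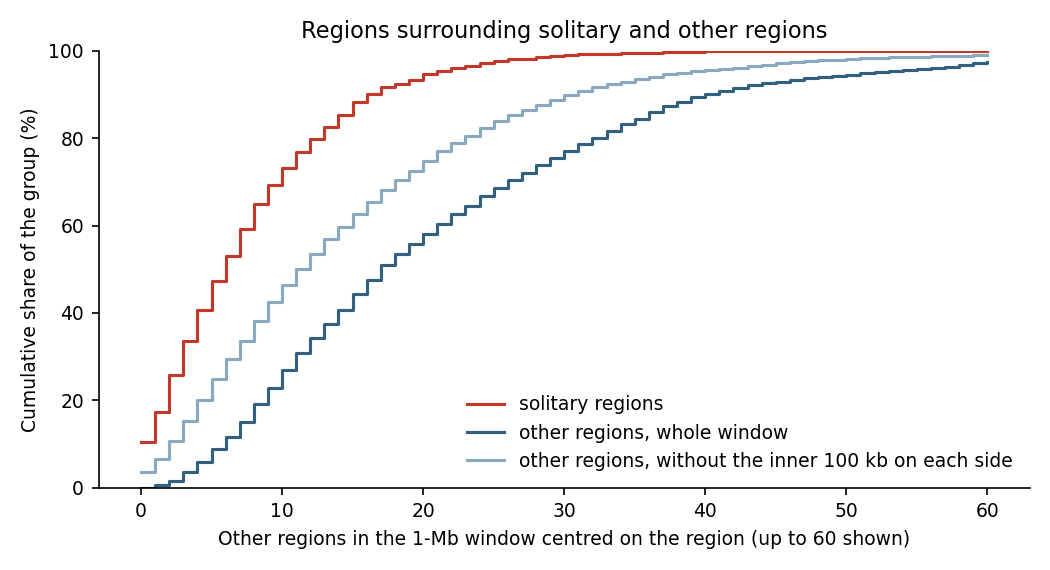
Cumulative share of regions (y axis, percent of the group) by the number of other regions in the 1-Mb window centred on each (x axis, up to 60), for solitary regions (red), for the other regions (dark blue) and for the other regions with the inner 100 kb on each side left out (light blue). The red curve lies above both blue curves, with medians of 6, 17 and 11.

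Widths were also set side by side by the number of others in the complete 1-Mb window, since sparse and dense megabases could differ in width. For the other regions this number includes neighbours in the inner 100 kb, which the rule empties for members. Density beyond that stretch was therefore not matched. The top class is open, with counts up to 48 in solitary regions and 172 in the others. With 1 to 2 others in the window, 188 solitary regions had a mean width of 265 ± 209 bases (SD) and 355 other regions 304 ± 242 bases. With 3 to 5 others, the means were 285 bases in 258 solitary regions and 286 bases in 1533 others. With 6 to 10 others, 315 solitary regions had a mean of 279 ± 196 bases and 3873 others 286 ± 228 bases. With 11 to 20 others, 259 solitary regions had a mean of 264 ± 176 bases and 6688 others 288 ± 221 bases. With over 20 others, 65 solitary regions had a mean of 312 ± 274 bases and 9009 others 284 ± 213 bases. The solitary mean was thus lower in 4 of 5 classes and higher in the densest, which held the fewest solitary regions. The medians held no single direction. In the same order they were 200 against 225, 225 against 225, 225 against 200, 200 against 225 and 250 against 225 bases. These differences were not tested. Across members, Spearman's rho between width and the number of others in the window was 0.0299 over 1211 regions.

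The chromosomes differed in the share of their regions that was solitary. Highest were chromosome 13 with 71 of 928 regions, or 7.65% (95% Wilson interval 6.11 to 9.54), chromosome 10 with 82 of 1087, or 7.54% (6.12 to 9.27), and chromosome 3 with 77 of 1152, or 6.68% (5.38 to 8.27). Lowest were chromosome 11 with 53 of 1717, or 3.09% (2.37 to 4.02), chromosome 17 with 33 of 1042, or 3.17% (2.26 to 4.41), and chromosome 7 with 68 of 1665, or 4.08% (3.23 to 5.15). The intervals treat regions as independent, which neighbours are not. Chromosome 11 was also the one with the most regions per Mb, at 14.5.

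The density of solitary regions was also computed over the span between the outermost regions of each chromosome. It ran from 0.358 per Mb on chromosome 17 to 0.647 per Mb on chromosome 10, with a median of 0.498, while all regions ran from 7.44 to 14.5 per Mb. Across the 19 chromosomes the density of solitary regions had a Spearman's rho of -0.168 with the density of all regions. The share of solitary regions had a rho of -0.874 with that density, which is its own denominator. More crowded chromosomes thus held a smaller share of solitary regions, while the number of these per Mb was only weakly related to crowding over the 19 chromosomes.

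**Figure D5:**
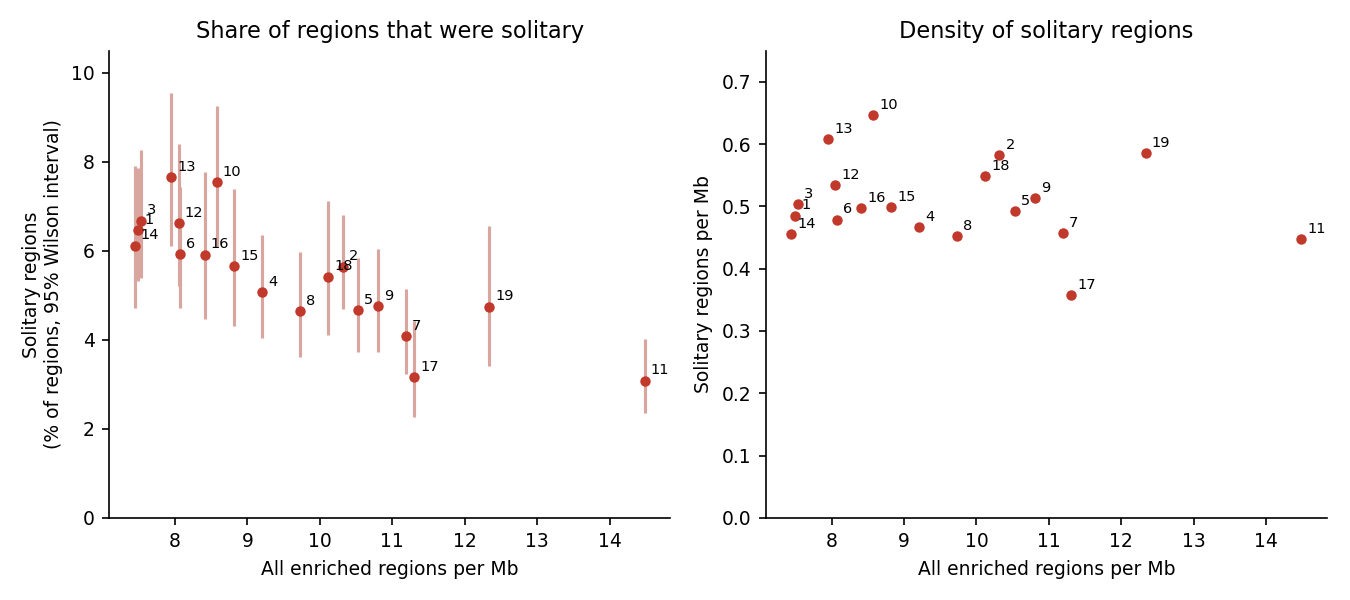
Each point is 1 of chromosomes 1 to 19, placed by its number of enriched regions per Mb (x axis); the left panel gives the percent of its regions that were solitary with 95% Wilson intervals, the right panel its solitary regions per Mb. The share falls from 7.65% on chromosome 13 to 3.09% on chromosome 11, while the density of solitary regions stays between 0.358 and 0.647 per Mb.

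Along the chromosomes, solitary regions were found in each of 5 equal parts of the span between the outermost regions. The part at the start of the numbering held 230 members and the last part 265. As a share of all regions in a part, members ranged from 4.61% in the last, which held the most regions (5753), to 6.14% in the middle one.

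Solitary regions also occurred in succession, which the rule favours, since a region next to a member already has 1 gap over 100 kb. No reference share for this was computed. Solitary regions formed 863 runs in which no other kind of region came between. Of these runs, 620 held a single member, and 591 members (48.8%) were in runs of 2 or more. The longest runs held 6 members each and there were 3 of them. One on chromosome 6 reached from 61915101 to 64616150, with widths of 100 to 375 bases over 2.70 Mb. Another on chromosome 12 reached from 117297476 to 118493600, a stretch of 1.20 Mb with widths of 125 to 350 bases. The last, on chromosome 14 from 121346026 to 123290975, spanned 1.94 Mb with widths of 100 to 575 bases. All 3 runs mixed single peaks with wider regions, as the complete group did.

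The nearest neighbour of a solitary region was in most cases not solitary itself. It was a member in 353 cases (29.1%), a share that the rule raises, since such a neighbour already has 1 gap over 100 kb. For the surroundings, loci were formed by linking regions with gaps of at most 10 kb, with no regard to gene borders. The nearest neighbour was a locus of 1 region for 676 members (55.8%), belonged to a locus of 2 regions for 249 (20.6%) and to a locus of 3 or more for 286 (23.6%). Of all 11295 loci of these chromosomes, 52.7% held 1 region.

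Remote loci were then compared with the rest, because a solitary region is a remote locus with a single region. Of 2264 loci more than 100 kb from any other, 1211 (53.5%, 51.4 to 55.5) held 1 region and are the solitary regions, 506 held 2 and 547 held 3 or more, up to 12. Among the 9031 loci with another at 100 kb or nearer, 52.5% (51.5 to 53.5) held 1 region. The intervals overlapped, so a single region was about as frequent among remote loci as among the others. The 3169 regions in remote loci of 2 or more had a median width of 225 bases and a mean of 295 ± 227 bases (SD), with a single-peak share of 46.8%. Such a locus covered a median of 750 bases over a median span of 2275 bases, against the 225 bases of a solitary region. This difference follows from the definition, since such a locus sums 2 or more regions. Per region both medians were 225 bases.

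Solitary regions lay at the edges of many long stretches without a listed region, and the rule itself brings this about. It asks for more than 100 kb without another region on each side of a member. The shares below are therefore a description, and no reference share was computed for them. Between consecutive regions of a chromosome there were 4581 stretches over 100 kb without enrichment, and 2071 of them (45.2%) had a solitary region at 1 or both ends. Of 491 stretches over 1 Mb, 255 (51.9%) did, and of 132 over 2 Mb, 65 (49.2%). Counted in fixed bins of 1 Mb, 937 of the 2015 bins with any region (46.5%) held a solitary one, and in 194 bins every region was solitary. No bin held more than 4 members, and 5 bins held that many. Without heights or input counts, RNA abundance and enrichment cannot be told apart, and an empty stretch is one where no peak was listed.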

How the data were processed

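MeRIP and input libraries were prepared from microdissected tissue, with 2 rounds of immunoprecipitation, per the labels' protocols. The authors deposited 1 list of peak positions without header, with chromosome, start and end in 3 columns and no other measurement. The submitters' processing notes name build mm9, SAMtools 0.1.18 and BWA 0.6.2-r126 without their roles. Not given in the sources used here are the peak caller, its threshold and the pooling of libraries. A stricter threshold could remove regions and make others solitary.

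Touching peaks were joined, and gaps were measured from end to start within a chromosome. Windows of 1 Mb were centred on each region. Shares have 95% Wilson intervals. Coordinates count from 1. The tools were matplotlib 3.10.9, scipy 1.17.1, pandas 2.3.3, numpy 2.4.6 and Python 3.11.15; joining, nearest distance and window counts were tested on 800 simulated regions against direct enumeration. Named are the 5 most distant and 5 widest members, 5 on each side of the limit, the longest runs and the 3 chromosomes of highest and lowest share. The members and this rule were chosen with earlier results of these data known. Gene and motif comparisons that had been planned were not made, because no mm9 annotation or genome was used here.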

Additional observations from a re-analysis of the deposited data

How the results depend on the processing

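No paired analysis was possible because all libraries share 1 set of positions, and leaving out single libraries was impossible too. Of 26 alternatives, 17 stayed within the counting interval of the reported value, or within 1.5 times the reported number of regions, and 9 did not. With a limit of 50000 bases there were 2294 solitary regions with a median of 9 others within 1 Mb, and with 200000 bases 538 regions with a median of 3. Joining peaks within 100 bases lowered the single-peak share to 44.4%, against 45.9% in the other regions, by construction, since joined regions hold more peaks. Using only regions of at least the median width gave 1581 solitary regions, a number within the 1.5 times. Among the 11500 regions of that setting this was 13.7%, against 5.34% in the main setting. Its median width was 325 bases against 350, and its single-peak share was 0% in both groups. Its median number of others within 1 Mb was 3 against 9. These values also moved by construction. A window of 2 Mb held a median of 13 others, against 30. The settings for gene overlap and for the GGAC motif were not run. Depth is unknown, and its part in which regions were solitary was not tested.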
